A study of Mus musculus with 88 samples.

Results

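The PARP family was followed as 8 proteins of mouse dendritic cells: Parp1, Parp4, Parp9, Parp10, Parp12, Parp14, Zc3hav1 and Dtx3l. Members were the protein groups of the trypsin-digested samples whose first listed gene name was one of these symbols. All 8 were found, each as 1 group, among 5899 groups kept. Dtx3l is an E3 ubiquitin ligase, not a PARP enzyme, and was listed as the binding partner of Parp9.

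PARP enzymes take ADP-ribose from NAD+ and attach it to proteins or nucleic acids, either as long chains or as single units. Parp1 senses broken DNA in the nucleus and builds chains there, and Parp4 sits on the vault, a large ribonucleoprotein particle of the cytoplasm. Parp9 and Parp14 carry macrodomains, which bind ADP-ribose, and Parp9 works in a complex with Dtx3l. Parp10, Parp12 and Parp14 attach single units. Zc3hav1, also called ZAP, shares CCCH zinc fingers with Parp12, binds viral RNA and is catalytically inactive. Several of these genes are textbook targets of interferon, which dendritic cells release when lipopolysaccharide engages their Toll-like receptor.

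Dendritic cells had been derived with GM-CSF from bone marrow of female C57BL/6J mice. They received LPS (100 ng per ml of lipopolysaccharide) or, as the mock group, no stimulus, and the labels give no age. All cells grew in medium-heavy amino acids (M), were pooled just before the stimulus and were moved to heavy amino acids (H) at 0 h, so M marks old protein and H protein made after the switch. An unlabelled cell mix (L) was added to every sample as a common reference. The 42 trypsin runs formed 21 groups with 2 replicates each: 1 group at 0 h, and for either treatment 10 later times between 0.5 and 24 h. The protocols do not describe the 24 h harvest. Whether the 2 replicates came from separate cultures is not in the labels. The p-values therefore refer only to the spread between samples, and this spread may be technical. With bulk lysates, fewer cells of a type and less protein per cell cannot be told apart.

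Each run gave 68083 to 109064 M/L peptide pairs (median 89439), where a pair is a peptide seen in both channels. All 8 members had an H/L, an M/L and an H/M ratio in 42 of 42 runs. Parp14 was the most deeply measured, with a median of 34.5 H/L pairs per run (28 to 71) from 73 unique peptides that covered 40.8% of its 1817 residues. Dtx3l had 22 pairs (13 to 36), Parp9 had 16 (7 to 31), Parp4 and Zc3hav1 had 14 each, and Parp1 had 13. Parp10, with 5 pairs (2 to 10), and Parp12, with 4 pairs (2 to 8), were the thinnest, so their ratios are the least precise.

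Before the stimulus the 8 proteins differed in abundance. The measure was relative iBAQ. It takes a protein's peptide intensity per peptide that its sequence could yield, here as a percent of the iBAQ summed over all kept proteins of a sample, so it can be set side by side between proteins. In the M channel at 0 h, Dtx3l made up 0.00166% and 0.00295% in the replicates and Parp1 made up 0.00205% and 0.00128%. Zc3hav1 (0.000916% and 0.000773%) and Parp9 (0.000725% and 0.000696%) came next, followed by Parp4 (0.000569% and 0.000392%) and Parp14 (0.000482% and 0.000464%). Parp10 (0.000202% and 0.000147%) and Parp12 (0.000133% and 6.92e-05%) were lowest. Replicates of Dtx3l and Parp1 overlapped, as did those of Parp4 and Parp14, while the replicates of Parp10 and Parp12 did not overlap with each other or with any other member. Among the 4514 proteins measured in both replicates, the percentile of Dtx3l was 62.3, that of Parp1 was 56.8, that of Parp10 was 21.4 and that of Parp12 was 14.8. Unlabelled 0 h cells digested with other enzymes, 2 samples each, listed 6 of the 8, without Parp10 and Parp12. In the LysN digest Dtx3l had a relative iBAQ of 0.00224% and 0.00196%, above both Parp1 samples (0.00176% and 0.00128%). In the AspN digest Dtx3l (0.000644% and 0.0014%) and Parp1 (0.00118% and 0.00104%) overlapped. Zc3hav1 in the LysN digest (0.00206% and 0.0014%) overlapped both, unlike in the trypsin samples. Parp9 was listed at 0 in 1 sample of each of these digests, and Parp4 in 1 LysN sample.

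Newly made protein was read from H/L. Ratios were first scaled per run, by the median total (H/L and M/L added) of the 2628 proteins that every run measured. Over 6, 9 and 12 h, called late here, new Parp14, Parp12, Dtx3l, Parp9 and Zc3hav1 were higher under LPS, and Parp4, Parp10 and Parp1 did not pass the test. The 5 members called higher out of 8 stand beside 10.4% of all 3316 proteins tested. The test was limma's moderated test over all proteins, with Benjamini-Hochberg adjusted p below 0.05 as the threshold and 6 samples in each arm. The median log2 difference was 1.29 over the 8 members and 0.03 over all proteins. In all 5, picked by the test on these same values, the 6 LPS samples lay above the 6 mock samples without overlap. The share of all proteins without overlap was not computed, here or for the other measures below.

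**Figure D1:**
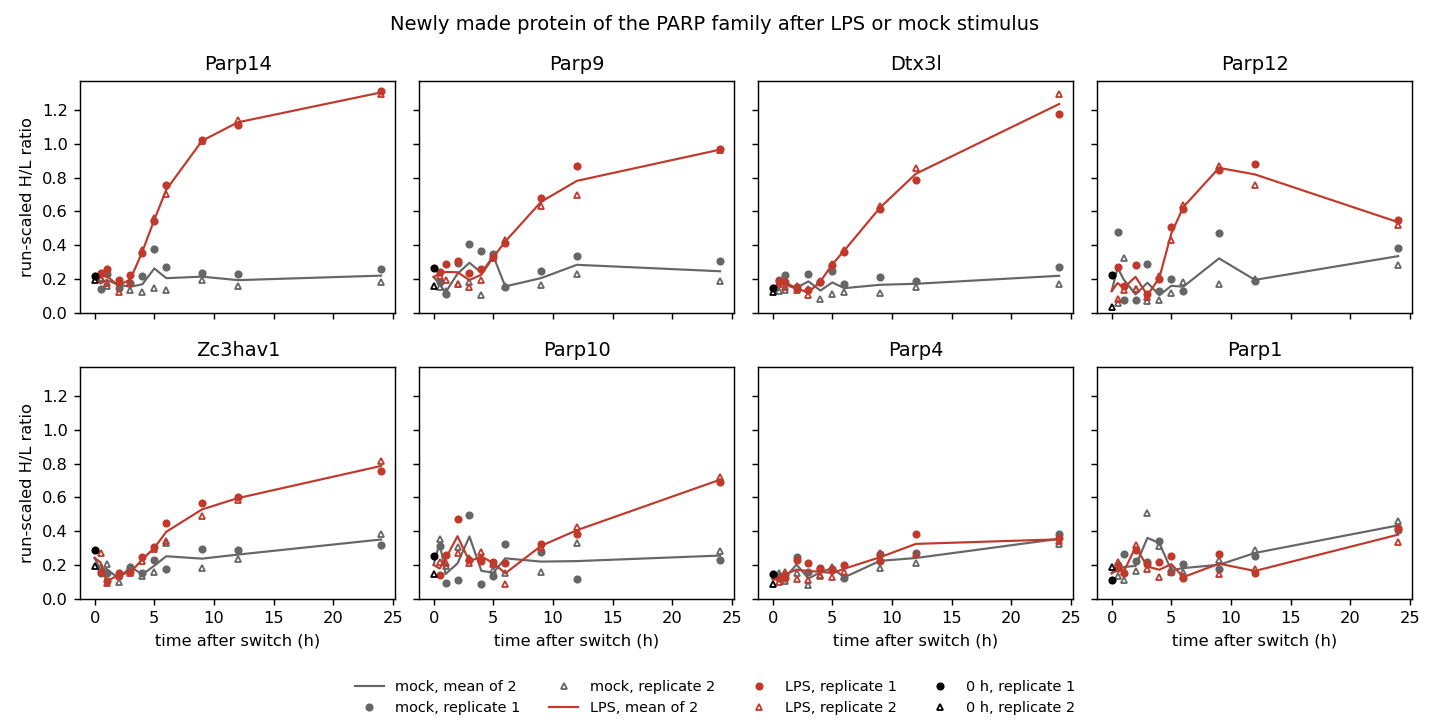
Run-scaled H/L ratio (vertical axis, no unit) of each member against hours after the switch to heavy medium, with replicate 1 as filled circles, replicate 2 as open triangles and lines through the means of 2. Under LPS, Parp14 reaches 1.31 and 1.30 at 24 h against 0.256 and 0.183 in mock samples, Parp12 is highest at 9 and 12 h, and Parp4 at 24 h is at 0.362 and 0.341 against 0.382 and 0.326 in mock samples.

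Parp14 had the largest late value of the 8 in these ratios. With summed intensities Dtx3l was higher (1.31 against 1.28), and with the 0 h signal subtracted Parp14 could not be tested. Its scaled H/L in LPS samples was 0.756 and 0.702 at 6 h, 1.02 and 1.02 at 9 h and 1.11 and 1.14 at 12 h. In mock samples it was 0.272 and 0.137 at 6 h, 0.236 and 0.191 at 9 h and 0.226 and 0.159 at 12 h. LPS samples climbed with time while mock samples stayed low, and the lowest LPS value was above the highest mock value. The log2 difference was 2.25 ± 0.22 (SE, 6 samples per arm), a 4.76-fold change, with a limma adjusted p of 2.99e-08. It ranked 34th of 3316 from the highest change, and the LPS sample was the higher one in 6 of 6 pairs, each matched by time and by replicate.

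Dtx3l and Parp9, partners in a complex, both rose in new protein. Scaled H/L of Dtx3l was 0.362 and 0.374 at 6 h, 0.615 and 0.632 at 9 h and 0.787 and 0.861 at 12 h under LPS. The 6 late mock samples ranged from 0.118 to 0.212 with a median of 0.162. The log2 difference of Dtx3l was 1.87 ± 0.22 (3.66-fold, limma adjusted p 8.64e-07). Replicates of Dtx3l lay close together at each LPS time.

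For Parp9, scaled H/L under LPS was 0.411 and 0.432 at 6 h, 0.681 and 0.634 at 9 h and 0.868 and 0.695 at 12 h. Late mock samples of Parp9 ran from 0.152 to 0.335 with a median of 0.198. Its late log2 difference was 1.54 ± 0.26 (2.92-fold, limma adjusted p 0.000121). Both partners were thus higher in 6 of 6 pairs. Within each late run, log2 H/L of Parp9 minus that of Dtx3l was 0.06 ± 0.20 (SD, n = 6) under LPS and 0.39 ± 0.34 in mock samples, with overlapping ranges. This is a difference of ratios to the light mix and not of molecule numbers.

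Of the 2 members with CCCH zinc fingers, Parp12 changed more and with a wider error. Its scaled H/L under LPS was 0.616 and 0.636 at 6 h, 0.846 and 0.872 at 9 h and 0.884 and 0.756 at 12 h. Mock samples were at 0.128 and 0.180 at 6 h, 0.472 and 0.171 at 9 h and 0.189 and 0.200 at 12 h. The first mock replicate at 9 h stood above the other mock samples but below every late LPS sample. Parp12 had a log2 difference of 1.91 ± 0.50 (3.75-fold, limma adjusted p 0.0108). The call ended when the other mock 9 h sample, replicate 2, was left out, with 1.66 and adjusted p 0.0505.

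Zc3hav1 had the smallest of the 5 called changes. Its scaled H/L was 0.448 and 0.344 at 6 h, 0.567 and 0.491 at 9 h and 0.605 and 0.586 at 12 h under LPS. In late mock samples it lay between 0.174 and 0.328 (median 0.261), so the closest samples of the arms were the second replicates at 6 h. This gave a log2 difference of 1.04 ± 0.18 (2.05-fold, limma adjusted p 0.000141).

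The calls of 4 of these 5 proteins depended on how ratios were formed or on a replicate. Ratios of summed channel intensities ended those of Parp14 (1.28, limma adjusted p 0.258) and Parp12 (0.90, 0.522). The deposited normalised ratios ended those of Parp12 (1.59, 0.0663) and Zc3hav1 (0.61, 0.202). Without any sample of replicate 2, Parp9 (1.43, 0.0934) and Parp12 (1.78, 0.184) did not pass, and without replicate 1 Zc3hav1 (0.95, 0.192) did not. Dtx3l was called under every alternative tried, and all 5 kept the direction in every alternative in which they could be tested.

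Parp10, a mono-ADP-ribosyltransferase, had no detectable late change. Its late samples overlapped, from 0.0887 to 0.426 under LPS and from 0.116 to 0.329 in mock samples. The log2 difference was 0.31 ± 0.33 (95% interval -0.38 to 0.99, limma adjusted p 0.757), an interval that still holds a change of nearly 1 log2 unit. At 24 h the values parted, at 0.690 and 0.721 under LPS and 0.228 and 0.283 in mock samples. That difference of 1.48 ± 0.57 did not pass after adjustment over all proteins (limma adjusted p 0.123, 2 samples per arm).

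The vault protein Parp4 and the DNA break sensor Parp1 had overlapping arms too. Scaled H/L of Parp4 ran from 0.156 to 0.382 in late LPS samples and from 0.125 to 0.273 in late mock samples, with a log2 difference of 0.35 ± 0.22 (95% interval -0.10 to 0.80, limma adjusted p 0.438). For Parp1 the late LPS range was 0.119 to 0.266 and the mock range 0.155 to 0.287. Its log2 difference was -0.41 ± 0.23 (95% interval -0.89 to 0.07, limma adjusted p 0.381), with LPS higher in 1 of 6 pairs. In the deposited normalised ratios this lower value of Parp1 passed (-0.91, adjusted p 0.0124), on a scale where the median of all proteins was -0.48.

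Heavy signal was already present at 0 h, before any heavy label had been given, and it differed between members. The heavy share, H over H plus M, was 39.0% and 41.0% for Parp14 at 0 h, 42.0% and 31.9% for Parp9 and 26.0% and 26.2% for Dtx3l. It was 33.5% and 7.65% for Parp12, 30.4% and 26.3% for Parp10 and 22.4% and 21.4% for Zc3hav1. Parp4 (15.7% and 13.5%) and Parp1 (8.35% and 14.5%) were near the median of all proteins, which was 14.2% and 13.1%. The H/L values and folds above include this signal. With the 0 h H/L subtracted, values at or below 0 dropped out, and 3 of 8 members could still be tested, of which Parp12 (4.57 on the log2 scale) and Dtx3l (3.29) were called.

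**Figure D2:**
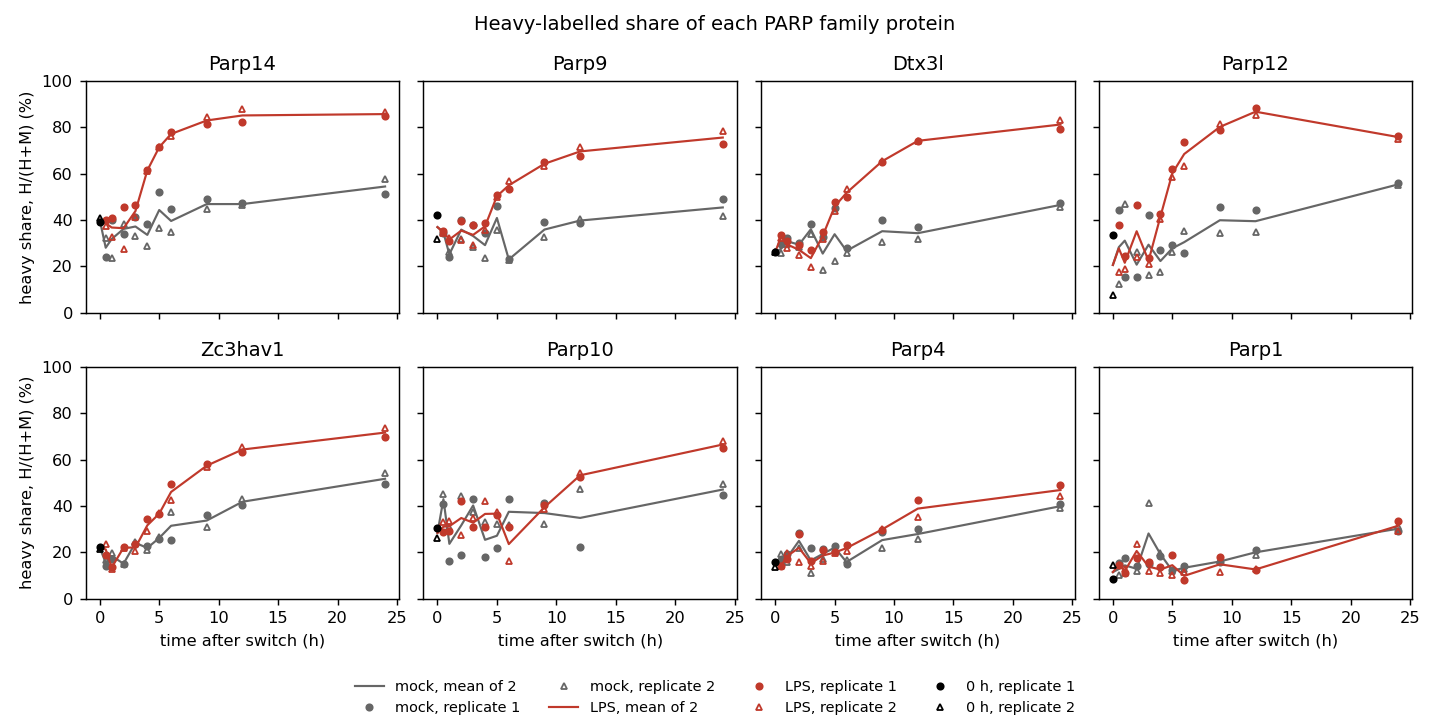
Heavy share of each member in percent (vertical axis, H over H plus M) against hours after the switch, with symbols as in the plot of H/L by time. Black symbols are the 0 h samples, where the share ran from 7.65% to 42.0% although no heavy label had been added. Under LPS the share of Parp14 reaches 84.8% and 86.6% at 24 h, and that of Parp1 33.7% and 29.2%.

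New protein of the members did not differ detectably in the first hours. Over 1, 2 and 3 h, 0 of 8 members were called higher, beside 0.356% of all proteins. An unadjusted limma p below 0.05 was seen in 0 of 8, and the share of all proteins at that threshold was not computed. Early log2 differences ran from -0.27 (Zc3hav1) to 0.36 (Parp10). With the deposited normalised ratios Parp10 was called early (limma adjusted p 0.0329). The late difference exceeded the early difference for Dtx3l by 2.10 ± 0.32 on the log2 scale (limma adjusted p 7.06e-05) and for Parp14 by 2.10 ± 0.31 (4.96e-05). It did so for Parp9 by 1.38 ± 0.37 (limma adjusted p 0.0227) and for Zc3hav1 by 1.31 ± 0.25 (0.0012). These 4 of 8 compare with 5.82% of all proteins. For Parp12 the difference was 1.76 ± 0.71 and did not pass (adjusted p 0.204). Without replicate 1 only Parp14 and Dtx3l passed this test, and without replicate 2 no member did, with 1.66 for Parp14 (adjusted p 0.0713) and 1.86 for Dtx3l (0.0938). Parp9 and Zc3hav1 did not pass with the deposited normalised ratios, and with summed intensities Dtx3l alone passed.

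At each of the 6 single times from 0.5 to 5 h, with 2 samples per arm, 0 of 8 members were called higher. The shares of all proteins at those times, in order, were 0%, 0.0317%, 0.0645%, 0.36%, 0.737% and 1.15%. At an unadjusted limma p below 0.05 in either direction there were 0, 2, 0, 0, 3 and 2 members. At 1 h these were Parp9 (0.98) and, with the lower value under LPS, Zc3hav1 (-0.81). Parp14 and Zc3hav1 had higher values at both 4 and 5 h, and Parp1 a lower value at 4 h (-0.99). No share of all proteins under that unadjusted threshold was computed to set beside these counts of members. At 6 h Parp14 alone passed (1 of 8, beside 2.67%), with a log2 difference of 1.92 ± 0.38. At 9 h Parp9, Parp14, Zc3hav1 and Dtx3l passed (4 of 8, beside 5.42%), and the same 4 passed at 12 h (beside 6.86%) and at 24 h (beside 7.43%). Parp12 passed at no single time.

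After 12 h new Dtx3l and Parp14 were higher still and new Parp12 was lower. New Dtx3l went on from 0.787 and 0.861 at 12 h to 1.18 and 1.30 at 24 h under LPS, and new Parp14 from 1.11 and 1.14 to 1.31 and 1.30. New Parp12 went from 0.884 and 0.756 at 12 h down to 0.551 and 0.522 at 24 h, where mock samples were at 0.385 and 0.285. Replicates did not overlap between 12 and 24 h for any of these proteins. New Parp9, Zc3hav1, Parp10 and Parp1 were also higher at 24 h than at 12 h under LPS without overlap, while Parp4 overlapped. The median scaled H/L of all proteins rose as well under LPS, from 0.242 and 0.197 at 12 h to 0.332 and 0.310 at 24 h. A rise over these hours is therefore not particular to the members. This contrast of times within LPS was not tested. At 24 h the log2 difference between LPS and mock was 2.59 ± 0.38 for Parp14, 2.54 ± 0.39 for Dtx3l, 2.02 ± 0.46 for Parp9 and 1.17 ± 0.31 for Zc3hav1. Parp12 at 24 h was at 0.70 ± 0.87 (limma adjusted p 0.829). With 1 replicate left out, only Parp14 and Dtx3l (without replicate 1) or Parp14 (without replicate 2) passed at 24 h. Zc3hav1 also did not pass without the run scaling (1.41), with normalised ratios (1.06) or with summed intensities (1.34), and the last ended the call of Parp14 (1.32).

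Protein made before the stimulus was read from M/L, scaled in the same way. Parp12 alone passed the test: late M/L was 0.250 and 0.291 at 6 h, 0.218 and 0.192 at 9 h and 0.192 and 0.124 at 12 h under LPS. Mock samples were at 0.365 and 0.327, 0.305 and 0.333, and 0.228 and 0.309. LPS was lower in each of the 6 pairs, though the arms overlapped, with the lowest values of both at 12 h. The log2 difference was -0.60 ± 0.09 (limma adjusted p 5.18e-05). That 1 of 8 is near the 13.3% of all 3432 proteins called lower. Leaving out all samples of replicate 1 or of replicate 2 ended this call (-0.76 with adjusted p 0.0801, and -0.43 with 0.0572). Old Parp14 (-0.13 ± 0.12), Dtx3l (0.01 ± 0.05), Parp9 (0.08 ± 0.12), Parp4 (-0.10 ± 0.05) and Zc3hav1 (-0.14 ± 0.06) did not pass. For old Zc3hav1, LPS was higher in 0 of 6 pairs.

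**Figure D3:**
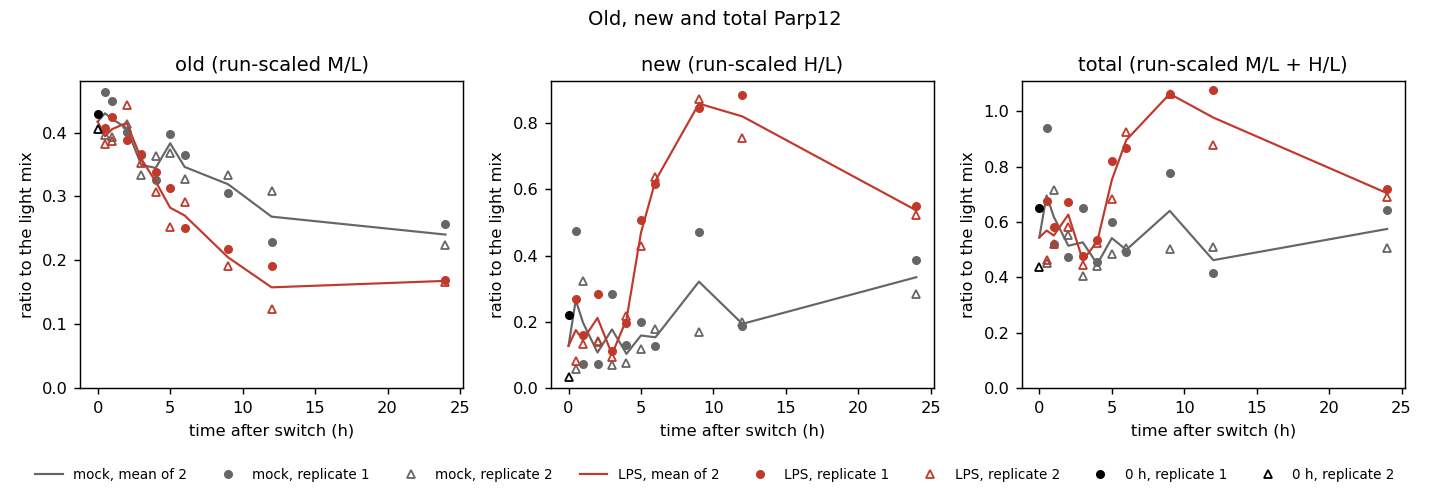
Old (M/L), new (H/L) and total (M/L + H/L) Parp12 as run-scaled ratios to the light mix against hours after the switch, with lines through the means of 2 replicates. Under LPS old Parp12 is at 0.192 and 0.124 at 12 h, new Parp12 is highest at 9 and 12 h, and the total is at 0.720 and 0.689 at 24 h.

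The total, M/L plus H/L, was higher late under LPS for the same 5 members, beside 9.98% of all proteins called higher. Total Parp14 lay between 0.914 and 1.35 (median 1.24) in late LPS samples and between 0.353 and 0.535 (median 0.433) in mock samples. The arms did not overlap, and the log2 difference was 1.42 ± 0.12 (2.67-fold, limma adjusted p 5.5e-09). Total Dtx3l was 0.716 to 1.17 under LPS against 0.441 to 0.520 in mock samples, a log2 difference of 0.93 ± 0.07 (1.91-fold, adjusted p 1.17e-10). Its total went on to 1.46 and 1.55 at 24 h. Total Parp12 changed by 0.90 ± 0.16 (1.86-fold, limma adjusted p 0.000163) and total Parp9 by 0.81 ± 0.14 (1.75-fold, 9.05e-05), again without overlap. In summed channel intensities only Zc3hav1 passed for the total (1 of 8). Calls for the total also ended for Parp9 and Parp12 without replicate 2, and for Zc3hav1 without replicate 1 or without the run scaling. Total Parp12 was 0.866 to 1.08 in late LPS samples but 0.720 and 0.689 at 24 h. Total Zc3hav1 changed by 0.38 ± 0.07 (limma adjusted p 0.000314), and its arms overlapped, at 0.828 to 0.992 and 0.583 to 0.850. Totals of Parp10 (0.17 ± 0.16), Parp4 (0.02 ± 0.06, 95% interval -0.09 to 0.14) and Parp1 (-0.07 ± 0.10, -0.27 to 0.13) did not pass. With the deposited normalised ratios Parp1 was called lower for the total too (-0.47, limma adjusted p 0.0108), for H/M (-0.93, 0.0279) and for late minus early (-1.14, 0.0203).

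**Figure D4:**
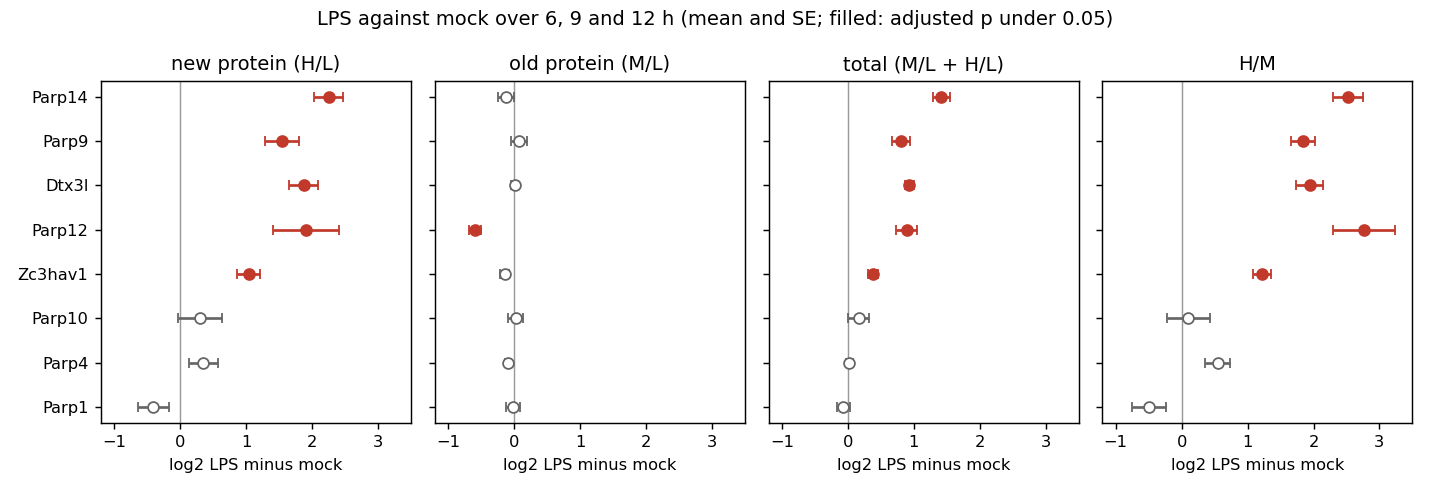
Log2 difference of LPS minus mock over 6, 9 and 12 h for new protein, old protein, their total and H/M (horizontal axes), with SE bars and 6 samples per arm. Filled red points passed adjusted p below 0.05. New protein, total and H/M are called higher for 5 members, and old protein is called lower for Parp12 alone.

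The ratio H/M is formed within a run and needs neither the light mix nor the run factor. It was higher late under LPS for the same 5 members (5 of 8, beside 11.1% of all proteins). The log2 difference was 2.77 ± 0.47 for Parp12, 2.52 ± 0.22 for Parp14, 1.94 ± 0.20 for Dtx3l, 1.84 ± 0.18 for Parp9 and 1.22 ± 0.14 for Zc3hav1. The values of Parp12 and Parp14 lay within their errors of each other. Arms did not overlap except for Zc3hav1. Summed intensities ended the H/M calls of Parp12 (1.85) and Parp14 (1.88), and leaving out replicate 1 that of Zc3hav1 (1.06). Parp4 had 0.55 ± 0.19, higher in 6 of 6 pairs, with a limma adjusted p of 0.0682 and of 0.0205 with the replicate number as a block.

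Replacement was summarised by how fast log2 of the M share changed between 0.5 and 12 h (a slope), given here as the time over which log2 of the M share would fall by 1 unit. New protein added to the pool shortens this time as well as loss of old protein does. The slope was steeper under LPS for 6 of 8 members, beside 12.1% of all 3342 proteins. The time went from 40.3 h in mock samples to 4.20 h under LPS for Parp12, from 27.1 to 4.68 h for Parp14 and from 103 to 7.35 h for Dtx3l. It went from 76.7 to 9.06 h for Parp9 and from 21.6 to 8.75 h for Zc3hav1. Limma adjusted p-values of these 5 ran from 5.67e-09 (Parp12) to 1.62e-07 (Parp9). Parp4 was the sixth, from 73.0 to 26.9 h (adjusted p 0.0293), a smaller shift that also makes it the only member called here and in none of the late comparisons. Its call ended when either replicate was left out, with each channel centred separately and with summed intensities, and the deposited normalised H/M ended those of all 6. The median over all proteins was 123 h in mock samples and 111 h under LPS. Long times come from slopes near 0 and are poorly set: the mock slope of Dtx3l was -0.01 ± 0.01 per hour. Parp10 did not pass (adjusted p 0.304), and the slope of Parp1 did not differ detectably (adjusted p 0.796).

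The 5 members, picked out here by the same values, followed like courses in H/L. Over the 21 group means of log2 H/L, Pearson's r was 0.94 between Parp14 and Dtx3l and 0.92 between Parp9 and Dtx3l. Over the 10 pairs among these 5 it ran from 0.79 to 0.94, and over the other 18 pairs from -0.11 to 0.66. These values did not stay apart for LPS minus mock over the 10 times, where r ran from 0.44 (Parp9 and Parp12) to 0.96 (Parp14 and Dtx3l) among the 10 pairs and from -0.75 to 0.47 over the other 18. These are descriptions, since the groups share runs, light mix and treatment. Among 2443 other proteins measured in every run, the course most like Dtx3l was that of Ifit1 (r = 0.98), an interferon-induced RNA-binding protein, followed closely by the metabolic enzymes Pnp (0.98) and Acsl1 (0.98). The courses most like Parp14 were Ifi205a (0.98), Ifi204 (0.98) and Gbp5 (0.97), all from interferon-inducible families, and those most like Parp9 were Trex1 (0.94), a DNA exonuclease, Tgtp (0.94) and Nmi (0.94). Cpeb4, an mRNA-binding regulator of translation, was most like Parp12 (0.95), and Vcpip1, a deubiquitinase, most like Zc3hav1 (0.96). Parp4 was most like Gnb2 (0.93), Parp10 most like Tbc1d13 (0.83) and Parp1 most like Rab14 (0.81).

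In the RefSeq gene table (GRCm38.p6), Parp14, Dtx3l and Parp9 are 3 neighbouring protein-coding genes on chromosome 16. Zc3hav1 and Parp12 both lie on chromosome 6 as the ends of a stretch of 10 protein-coding genes. Parp1 is on chromosome 1, Parp4 on 14 and Parp10 on 15. Promoter windows of 300 bases, from 250 bases before to 50 after the gene start, were at hand for 5 members: Parp1, Parp4, Parp12, Zc3hav1 and Dtx3l. They were searched on both strands for the core of the interferon-stimulated response element (GAAA, any 2 bases, then GAAA again) and for that of the gamma-activated site (TTC, any 3 bases, then GAA). The first was found in 3.44% of 32851 windows and the second in 8.3%. The only member with a match was Parp4, at GAAAAAGAAA and the overlapping GAAAGTGAAA, which begin 150 and 144 bases before the start. The gamma-activated core was in none of the 5 windows. Below, the Parp4 window (chr14:56575369-56575668, plus strand) is shown for its match, in capitals. The Dtx3l window (chr16:35938978-35939277, minus strand) is shown as that of a member with higher new protein and no match.
Parp4: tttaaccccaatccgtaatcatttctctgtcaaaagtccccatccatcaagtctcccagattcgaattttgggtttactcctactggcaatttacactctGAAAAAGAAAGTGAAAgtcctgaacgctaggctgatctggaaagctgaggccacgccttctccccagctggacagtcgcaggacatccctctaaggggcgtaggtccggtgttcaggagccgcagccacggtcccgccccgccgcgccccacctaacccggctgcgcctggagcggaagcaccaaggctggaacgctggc
Dtx3l: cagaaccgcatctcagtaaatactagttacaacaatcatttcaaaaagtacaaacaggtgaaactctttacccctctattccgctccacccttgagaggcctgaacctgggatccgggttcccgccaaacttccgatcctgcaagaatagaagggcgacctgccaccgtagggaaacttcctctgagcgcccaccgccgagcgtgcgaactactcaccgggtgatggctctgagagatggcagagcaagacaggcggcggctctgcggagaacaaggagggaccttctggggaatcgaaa
Parp4, with the match, had 0.35 ± 0.22 in late new protein, and Dtx3l, without it, had 1.87 ± 0.22. A match is a run of letters in this window only, and its bearing on new protein was not tested.

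Proteins that work with the family were read from lists, and each count higher in late new protein stands beside the 10.4% of all proteins called higher. Of 9 other PARP enzymes 1 was in the table, Parp3, which did not pass for late new protein (0.10 ± 0.29). Of 15 proteins that remove or read ADP-ribose, 6 were tested and 0 passed for late new protein, with Nudt5, a hydrolase of ADP-ribose, at -0.53 ± 0.24 (limma adjusted p 0.21). The histone variant H2afy, which carries a macrodomain, was at 0.16 ± 0.17. In late H/M Nudt5 was called lower (-0.73 ± 0.21, limma adjusted p 0.0217), and the other 5 did not pass. Among DNA repair partners of Parp1, 1 of 6 tested was higher, the topoisomerase Top1 (0.87 ± 0.14, adjusted p 4.15e-05). Old Top1 was lower (-0.21 ± 0.06, limma adjusted p 0.0131), and its total did not pass (0.03 ± 0.06). Xrcc1, the scaffold Parp1 recruits to broken strands, was at -0.05 ± 0.48.

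Mvp, the main vault protein and partner of Parp4, was higher in late new protein by 0.57 ± 0.10 (limma adjusted p 0.000248), with overlapping arms. Its total did not pass (0.08 ± 0.04, limma adjusted p 0.153). Of 17 cofactors of Zc3hav1 and RNA exosome subunits 10 were tested and 1 was higher, Trim25 (0.74 ± 0.22, adjusted p 0.0284), the ubiquitin ligase that works with ZAP. That 1 of 10 is near the 10.4% of all proteins. Old Trim25 was lower (-0.63 ± 0.06, limma adjusted p 2.15e-07), and its total did not pass (-0.06 ± 0.07). Of 5 tested proteins of NAD supply and use, 3 were higher. These were Cd38, which consumes NAD+ (1.60 ± 0.19), Nampt, which starts the salvage of nicotinamide (1.23 ± 0.14), and Nadk, which makes NADP+ (0.62 ± 0.15). Totals of Cd38 (0.47 ± 0.08), Nampt (0.24 ± 0.04) and Nadk (0.45 ± 0.07) were called higher too. Bst1, from the same list, was called lower for the total (-0.53 ± 0.18, limma adjusted p 0.0407) and for old protein (-0.79 ± 0.18, 0.00297). New Bst1 did not pass (0.49 ± 0.42). In interferon signalling, the transcription factor Stat2 was higher (1.92 ± 0.27). The kinase Jak2, at 1.77 ± 0.64, did not pass (adjusted p 0.211).

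Of 13 listed dendritic cell markers 8 were in the table and 5 were tested. In late new protein Itgax (0.04 ± 0.20), Cd74 (0.18 ± 0.11), H2-Ab1 (0.43 ± 0.21) and H2-Aa (-0.21 ± 0.31) were not called. The maturation marker Cd40 was higher (3.46 ± 0.50). At 24 h 1 of 5 tested was called higher and 1 lower, the latter being Itgax (-1.39 ± 0.34, limma adjusted p 0.00856). Late old Cd74 was lower (-0.75 ± 0.19, limma adjusted p 0.00781), and its H/M was higher (0.96 ± 0.17). The 8 in the table made up 0.0547% to 0.0691% of labelled intensity in late mock samples and 0.0565% to 0.0869% in LPS samples. Of 6 tested macrophage markers, new Csf1r, Apoe and Lyz2 were lower and Cd14 higher late under LPS. Old protein was called lower for 6 of these 6, beside 13.3% of all proteins. The total was called lower for 5 of 6 and higher for Cd14. The 7 macrophage markers in the table made up 0.384% to 0.524% of labelled intensity in late mock samples and 0.266% to 0.450% in LPS samples. Of 6 tested granulocyte markers, Ltf and Ngp were lower, and the list of 11 held 1.07% to 2.05% in mock and 1.24% to 2.13% in LPS samples. Lymphocyte markers were at 0.000394% or less, and the platelet protein Pf4 was lower (-0.59 ± 0.12). The part of these shifts in the members' values was not tested.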

How the data were processed

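Bone marrow-derived dendritic cells were profiled by pulsed SILAC mass spectrometry, and the table of trypsin protein groups was used with the AspN and LysN tables of 0 h samples. The ratio columns (M/L, H/L and H/M, un-normalised and normalised) were deposited by the authors, with MaxQuant's column names, per the file headers. The count of peptide pairs behind each ratio, the summed intensity per channel and the percent of sequence covered were also deposited, per the file headers. Of the search, no setting is given in the sources used, and the submitters' processing notes list the mouse build mm9. Of 6266 groups, 367 marked as reverse, contaminant or identified by site alone were left out.

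Un-normalised ratios were divided by the run factor (log2 -0.68 to 0.69, the highest in LPS 12 h replicate 2). Log2 H/L, log2 M/L, log2 of their sum and log2 H/M entered a limma fit (3.58.1, R 4.3.3) of 21 group means, without a covariate. Late tests needed 4 or more of the 6 values of an arm, and the slope, fitted on -log2(1 + H/M), 12 or more of 18. P-values were adjusted by Benjamini-Hochberg across the whole table of each comparison. The limma step was tested on simulated data. Replicate numbers in the labels were taken to pair samples, since differences between replicates 1 and 2 correlated between mock and LPS at each of 10 times (r from 0.25 to 0.46). Alternatives covered the run factor, normalised ratios, summed intensities, peptide pairs, missing values, 0 h signal, a replicate block, left-out replicates and the 24 h samples.

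The 8 members and the gene lists were chosen with earlier results of these data known. All members were named, with those list proteins that passed for late new protein and up to 3 others per list with the most late values, and the 3 most alike proteins by Pearson's r. Of the dendritic cell markers, all those tested for late new protein were named. For interferon signalling, 1 protein that the rule names is not reported here. The alignment of catalytic residues that had been planned was not run. Peptide pairs are not independent molecules, so no counting interval was computed. Figures were drawn with matplotlib 3.10.9 in Python 3.11.15, with pandas 2.3.3 and numpy 2.4.6. Sequences are from RefSeq (GRCm38.p6).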

Additional observations from a re-analysis of the deposited data

Results flagged for a closer look

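Of the 8 members, 4 had an LPS effect on new protein that differed between the early (1, 2 and 3 h) and the late (6, 9 and 12 h) samples by a test of that difference in limma. On the log2 scale the late effect exceeded the early by 1.38 for Parp9, by 2.10 for Parp14, by 1.31 for Zc3hav1 and by 2.10 for Dtx3l. With adjusted p-values from 4.96e-05 (Parp14) to 0.0227 (Parp9), LPS was above mock in 6 of 6 late pairs for each, and in 2 to 5 of 6 early pairs. All 4 calls ended when replicate 2 was left out.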

How the results depend on the processing

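Alternatives are described by the number of members called and log2 LPS minus mock. Members called for late new protein (5) numbered 3 with summed intensities and 2 of 3 tested with the 0 h signal subtracted. For old protein (1) the number was 0 without a run factor and 0 with summed intensities, where the median of all proteins moved to 0.15 without a factor. With summed intensities it was 1 for the total (5), 3 for H/M (5), 2 at 24 h (4) and 1 for late minus early (4). With the 0 h signal subtracted it was 0 of 6 tested at 24 h, 0 of 1 for late minus early and 3 of 5 for the slope (6). The deposited normalised ratios gave 1 early (0, Parp10) and 0 for the slope, where they called 0 of all proteins. Leaving out replicate 1 or 2 gave 3 to 4 members for late new protein, 0 to 0 for old protein, 3 to 4 for the total, 1 to 2 at 24 h and 0 to 2 for late minus early. The normalised H/M column was chosen for H/M and the slope after seeing the data. The 0 h subtraction was not run for the total. The replicate block gave 6 members for H/M (5), adding Parp4 (adjusted p 0.0205), and changed no other call of a member.

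Values that changed sign belonged to members not called, except the slope of Parp4 with normalised ratios (0.018, and 0.012 for Parp10). Without a run factor, old Parp1 (0.15), Parp4 (0.069), Parp14 (0.040) and Zc3hav1 (0.024) and total Parp1 (0.097) turned positive. Old Parp1 was 0.016 when channels were centred separately. With normalised ratios, new Parp4 (-0.046) and Parp10 (-0.071), total Parp4 (-0.024) and Parp10 (-0.051) and H/M of Parp10 (-0.22) turned negative, and old Parp1 (0.017), Parp4 (0.011) and Zc3hav1 (0.073) positive. With summed intensities, old Parp4 was 0.060, Parp9 -0.10, Parp10 -0.029 and Dtx3l -0.47. H/M of Parp10 was -0.16 with the 0 h signal subtracted. Leaving out replicate 1 or 2, old Parp1 ran from -0.084 to 0.053, Parp9 from -0.0036 to 0.15, Parp10 from -0.034 to 0.089 and Dtx3l from -0.034 to 0.053. Total Parp1 ran from -0.15 to 0.012 and H/M of Parp10 from -0.16 to 0.36. The slope of Parp1 was -0.0011 with the 24 h samples, which also brought Parp10 past the threshold (adjusted p 0.00523).

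Over all proteins, late new calls numbered 400, against 261 with summed intensities, 206 with the 0 h signal subtracted, and 211 and 145 without replicate 1 and 2. Old calls (566) numbered 16 without a run factor, 955 with normalised ratios and 221 with summed intensities. Total calls (636) numbered 108 without a factor and 299 with summed intensities, and H/M calls (399) numbered 247 with summed intensities. Slope calls (464) numbered 306 with each channel centred, 309 with the 0 h signal subtracted and 803 with the 24 h samples. Late new medians of all proteins were 0.20 without a factor, -0.48 with normalised ratios and 0.25 with the 0 h signal subtracted. The cause of these changes was not tested. Parp10 and Parp12 rest on the fewest peptide pairs, which limits their precision.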
